A study of Mus musculus with 39 samples.

Results

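Mouse embryos that had been taken apart into single blastomeres were compared between the 2-cell and the 4-cell stage. The comparison used 22 of the 39 libraries of the series, each made from 1 blastomere: 10 from 5 separated 2-cell embryos and 12 from 3 separated 4-cell embryos. They were chosen by stage, by separation and by batch label, since all separated 2-cell embryos carry the label of batch 1 and only the 4-cell embryos numbered 2, 3 and 4 share it. Blastomere counts were added up within each embryo, which is the replicate (n = 5 and n = 3). Every embryo is labelled wild type (WT), and the labels name no strain, sex, litter, age in hours, or time between separation and lysis. The labels do not say whether the embryos had different mothers, and the p-values given rest only on how far these embryos differ from each other, part of which may be technical. Also in the fit, for the estimate of that spread, were 5 intact 2-cell embryos, 4 intact 4-cell embryos and the 2 separated 4-cell embryos of batch 2, all wild type. A 2-cell embryo is here a sum of 2 libraries and a 4-cell embryo a sum of 4, each from a smaller cell. The number and the input of the libraries therefore change with the stage and cannot be told apart from it.

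In the mouse, the egg is transcriptionally silent and the first divisions run on messages that the oocyte stored. Most of these messages are deadenylated and destroyed while the embryo's own genome is switched on in a main wave during the 2-cell stage, part of which is brief and limited to that stage. By the 4-cell stage the blastomeres have begun to transcribe genes for growth and translation, and the first regulators that later mark the outer trophectoderm and the inner cell mass appear. The comparison asks which transcripts went up or down across this step in embryos that had been separated.

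The 2-cell blastomeres gave 5930832 to 44048051 counts and the 4-cell blastomeres 2404473 to 5232474. This made 14229851 to 56216690 counts per 2-cell embryo and 13041675 to 15810954 per 4-cell embryo. In 2-cell embryos 1, 2 and 4 a single blastomere gave 77.2% to 78.4% of the counts, and in 4-cell embryos the largest share was 27.5% to 33.7%. Mitochondrially encoded transcripts took 21.2% to 22.9% of the counts in 4 of the 2-cell embryos and 33.2% in embryo 3, against 18.95% to 22.5% in the 4-cell embryos. All 6 markers fixed for the 2-cell stage were called lower at the 4-cell stage, as the labels would have it: Zscan4c, Zscan4d, Zscan4f, Zfp352, Tcstv1 and Tcstv3. No member of the marker lists for cumulus and granulosa, oviduct, blood and sperm cells was called. Only 1 of 20, 5 of 12, 3 of 12 and 3 of 12 members of these lists were tested, so most could not be called. The summed level of the cumulus and granulosa list was 0 to 43.8 CPM (a gene's share of an embryo's counts, scaled by edgeR's TMM factor) in 2-cell embryos and 0 to 0.0723 CPM in 4-cell embryos. Of that list, Fshr and Cyp19a1 had no count, and Tnfaip6, which oocyte-surrounding cumulus cells make, held 2416 of the 2-cell counts and none of the 4-cell counts (adjusted p = 0.0588). The summed oviduct list was at 48.8 to 196 CPM in 2-cell and 16.2 to 77.4 CPM in 4-cell embryos. For blood these ranges were 6.72 to 26.6 and 3.26 to 50.4 CPM, and for sperm 20.1 to 102 and 13.1 to 36.3 CPM. The part of such cells in the results was not tested.

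Between the stages, 1568 of 14119 genes tested passed (11.1%, edgeR adjusted p under 0.05), of which 904 were higher at the 4-cell stage (6.4%) and 664 were lower (4.7%). Genes called higher held 6.55% to 11.2% of an embryo's counts at the 2-cell stage and 23.1% to 25.9% at the 4-cell stage. Genes called lower went the other way, from 20.2% to 28.6% down to 6.78% to 7.54%. The highest share for the first set and the lowest for the second at the 2-cell stage both belong to 2-cell embryo 4. That embryo stood apart from its group: its share of genes called lower was 20.2%, against 27.3% to 28.6% in the other 4. Its 2 blastomeres also had the highest mean correlation with the 4-cell blastomeres, a Pearson r of log2 CPM across genes of 0.741 and 0.750, against 0.678 to 0.717 for the other 2-cell blastomeres. Without it, 1525 genes passed (846 higher and 679 lower). The 3 and 5 embryos did not overlap in 1254 of the genes called, and in 2885 of all genes tested (20.4%). Called genes changed by over 2-fold in 1558 cases. Since these values are shares of an embryo's own counts, a change of its total RNA is not seen, and in summed blastomeres fewer cells with a transcript and less of it per cell cannot be told apart.

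The number of calls was sensitive to single 4-cell embryos: 991 genes passed without embryo 2, 962 without embryo 3 and 811 without embryo 4. It was 903 in a fit of the 8 compared embryos alone and 3637 with DESeq2. The split changed with these tools, from 57.7% higher in the edgeR fit to 44.3% and 40.7% in the other 2.

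Intact embryos of both stages, which share no library with the separated ones, gave a like list. Between intact stages 1469 genes passed (10.4%), of which 764 were higher (5.41%) and 705 lower (4.99%), and 836 genes passed in both comparisons, 53.3% of the separated calls and 56.9% of the intact calls. Of the 1568 genes called in separated embryos, 1488 (94.9%) had the same sign in intact embryos. Over all 14119 genes the 2 log2 fold changes had a Pearson r of 0.53, given as a description across genes, which are not independent and were fitted with 1 shared estimate of spread. A test of the difference between the stage effects, an interaction term, called 0 genes after adjustment (0.0%), against 1228 at an unadjusted p under 0.05 (8.7%). DESeq2 called 657 genes in that test, and the edgeR fit with a stricter count filter called 1.

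**Figure D1:**
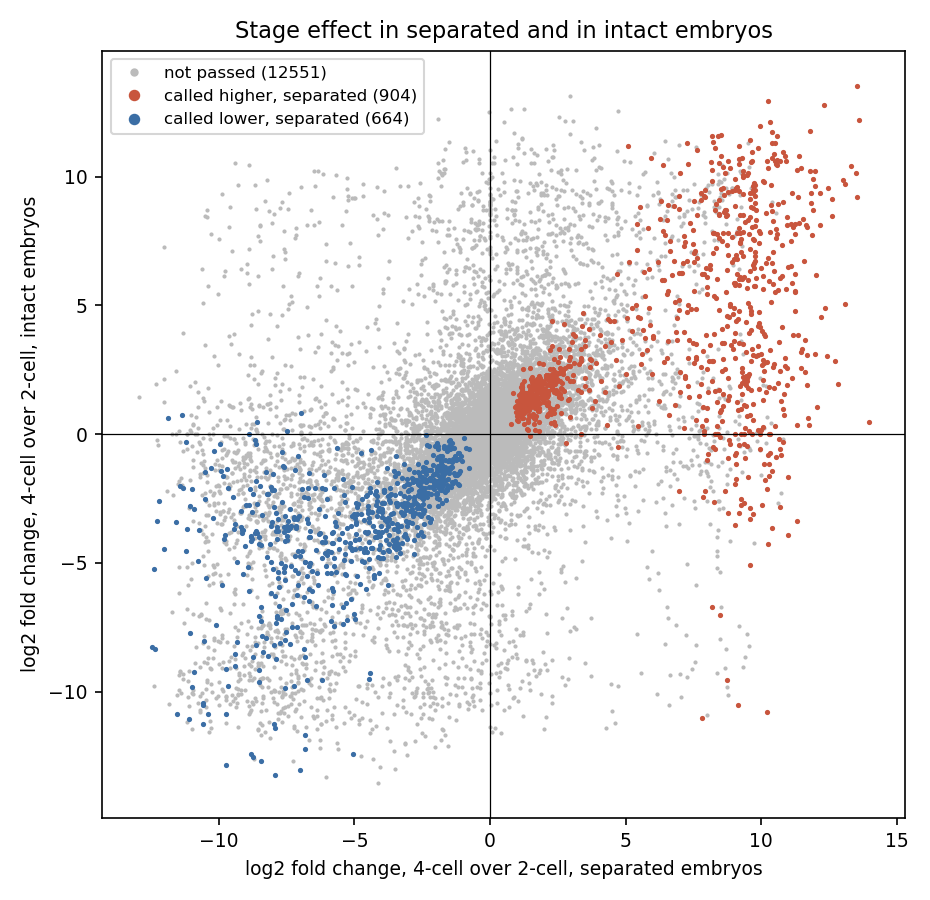
Log2 fold change between 4-cell and 2-cell stage in separated embryos (horizontal axis) against intact embryos (vertical axis), 1 point per gene tested. Of 1568 genes called in separated embryos (coloured), 1488 lie in the quadrants where both comparisons have the same sign.

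The 5 genes with the smallest p in the interaction show what such differences look like. Fbxw18, an F-box gene of an oocyte-expressed cluster, was at 93.99, 64.5, 227, 89.1 and 174 CPM in separated 2-cell embryos and at 0.217, 0.448 and 0.231 CPM in separated 4-cell embryos. It fell there (log2 fold change −8.73 ± 1.02, here and below ± SE, adjusted p = 5.57e-05) and was at 78.9 ± 37.1 CPM (n = 5) and 15.6 ± 11.99 CPM (n = 4) at the intact stages (adjusted p = 0.0267). Its interaction did not pass (adjusted p = 0.0706). The zinc finger gene Zfp560 fell from 279 ± 132 to 1.61 ± 0.487 CPM (mean ± SD) in separated embryos and was at 194 ± 97.1 and 14.8 ± 8.16 CPM at the intact stages (adjusted p = 1.3e-05 and 0.000253). Snhg3, a small nucleolar RNA host gene, fell in separated embryos from 268 ± 84.6 to 51.9 ± 13.2 CPM and stood at 129 ± 19.4 and 126 ± 16.98 CPM at the intact stages. For the kinase gene Mast3 the intact 2-cell embryos had no count, and the separated 2-cell embryos had 9.70, 11.7, 0.534, 6.54 and 7.21 CPM. Idh3b, a subunit of mitochondrial isocitrate dehydrogenase, had 0.0277 ± 0.0619 CPM in intact 2-cell embryos against 10.4 ± 10.4 CPM in separated ones, and 24.8 ± 13.5 and 34.8 ± 18.8 CPM at the 4-cell stage. None of these 5 interactions passed adjustment (adjusted p from 0.0706 to 0.296).

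Of the 8 genes of highest CPM that fell, 4 are known chiefly as oocyte products. Omt2b, an oocyte transcript at chr9:78327589-78329620 (GRCm38, GENCODE M21), was at 23308, 28371, 16088, 15779 and 20011 CPM in 2-cell embryos 1 to 5 and at 2109.7, 399.9 and 283 CPM in 4-cell embryos 2, 3 and 4. Omt2a, at chr9:78311972-78314796, is a close relative with which it may share reads, and was at 16923, 19703, 12673, 11340.0 and 14196 CPM and then at 1169, 264 and 254 CPM. In both genes the lowest 2-cell embryo lay above all 4-cell embryos, and 4-cell embryo 2 kept several times more than the other 2. The log2 fold changes were −4.48 ± 0.63 for Omt2b (adjusted p = 0.00028) and −4.73 ± 0.48 for Omt2a (adjusted p = 1.3e-05). They became −5.92 without 4-cell embryo 2 and −5.85 without 4-cell embryo 2, respectively. Oog3, a leucine-rich repeat protein of the oogenesin family, went from 5388, 6962, 4147, 2629 and 5652 CPM to 288, 112 and 75.1 CPM. The secreted oocyte protein gene Oosp1 went from 3778, 3234, 2748, 1229.9 and 4645 CPM to 133, 26.3 and 13.1 CPM. For these 2 genes as well embryo 2 was the highest of the 4-cell embryos, and the fall was −4.97 ± 0.49 for Oog3 (adjusted p = 1.3e-05) and −5.76 ± 0.93 for Oosp1 (adjusted p = 0.000801), or −5.72 without 4-cell embryo 2 and −7.30 without 4-cell embryo 2.

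Among the other transcripts of this rank, Calm2, which encodes the calcium sensor calmodulin, fell from 5266, 6727, 7317, 6974 and 5258 CPM to 1711, 1101 and 1001 CPM. Its fall was the smallest of the 8 (−2.31 ± 0.28, adjusted p = 7.48e-05), and the embryo groups did not overlap. Mdm4, an inhibitor of p53, went from 4760.3, 7837, 4517, 3263 and 3124 CPM to 938, 286 and 427 CPM (−3.10 ± 0.47, adjusted p = 0.000552, and −3.72 without 4-cell embryo 2). The nuclear exosome cofactor gene Mphosph6 went from 5942, 6948, 3112, 1486 and 4812 CPM to 577, 237 and 394 CPM (−3.47 ± 0.66, adjusted p = 0.00267). 2-cell embryo 4 was the lowest of its group for Mphosph6, as it was for Omt2b, Omt2a, Oog3, Oosp1 and Spin1. Spin1, a chromatin reader named spindlin that is abundant in eggs, went from 2541, 3877, 2708, 1426 and 2639 CPM to 222, 166 and 290.1 CPM (−3.55 ± 0.41, adjusted p = 5.57e-05). All 8 genes kept their call without any 1 of the 8 embryos, and none passed with limma voom (adjusted p from 0.334 to 0.948).

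**Figure D2:**
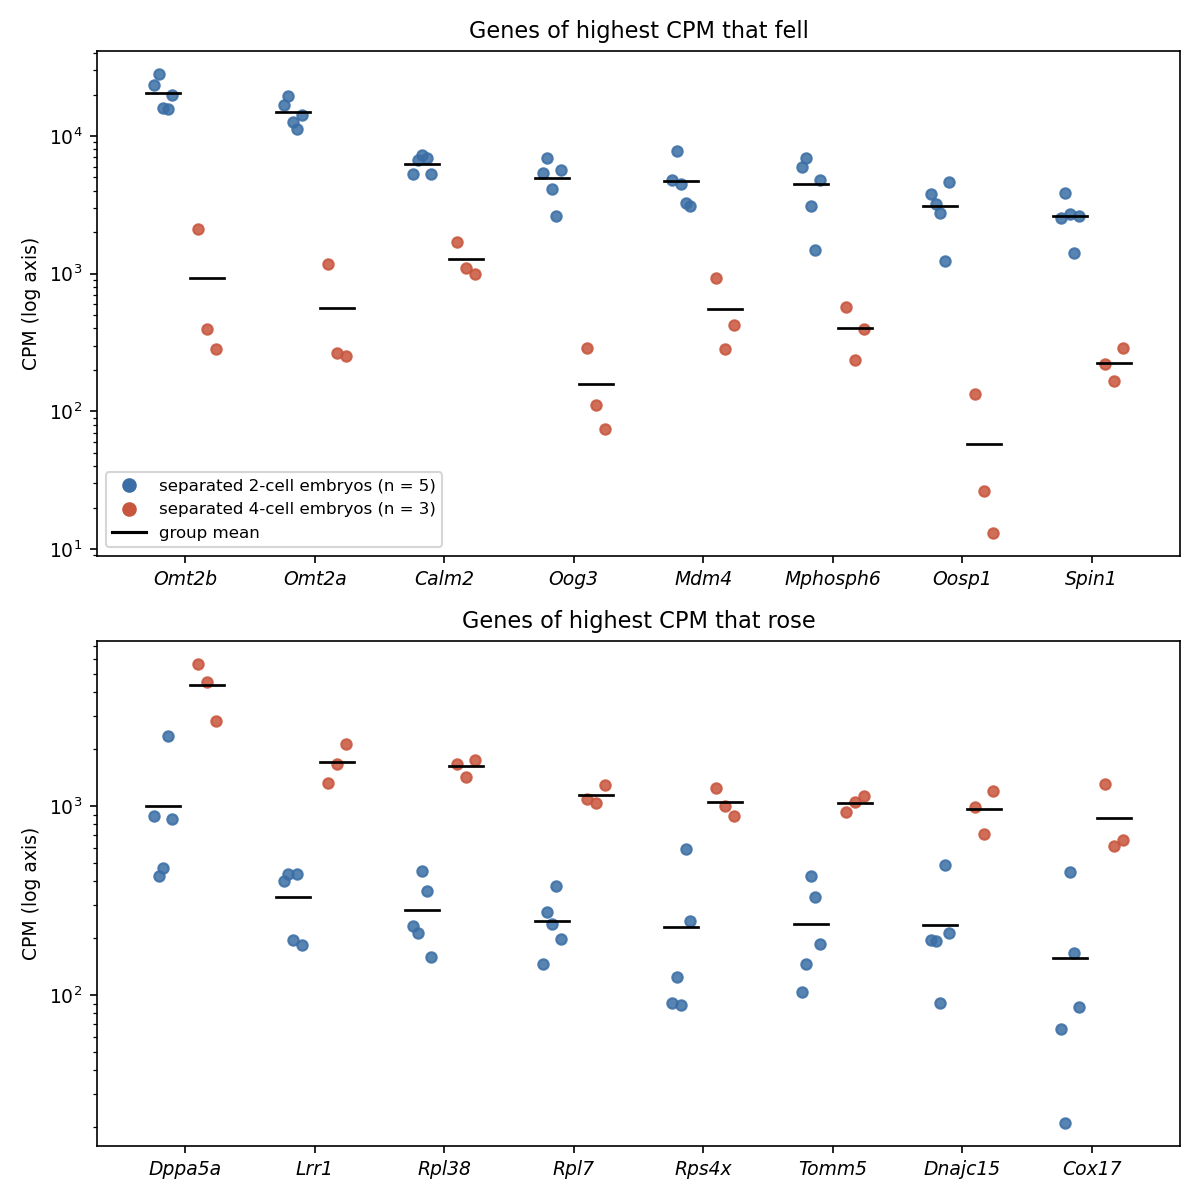
CPM (log axis) of the 8 genes of highest CPM that fell and the 8 that rose, 1 point per embryo, with a bar at each group's mean; separated 2-cell embryos (n = 5) and separated 4-cell embryos (n = 3). In each gene the 2 groups do not overlap, which the rule for choosing them required.

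Among the 8 genes of highest CPM that rose, Dppa5a, an RNA-binding protein of pluripotent cells whose gene at chr9:78367052-78368177 is close to Omt2a and Omt2b, was at 882, 429, 472, 2346 and 854 CPM in 2-cell embryos and at 5667, 4544 and 2832 CPM in 4-cell embryos. 2-cell embryo 4 came close to the lowest 4-cell embryo, and the rise (2.13 ± 0.61, adjusted p = 0.0313) was 2.72 without 2-cell embryo 4 and did not pass without 2-cell embryo 1, 2, 3 or 5 or 4-cell embryo 2 or 3, with adjusted p up to 0.0971. Lrr1, a substrate receptor of a cullin ubiquitin ligase that takes part in replisome disassembly, rose from 399, 438, 196, 436 and 184 CPM to 1330.3, 1677 and 2123 CPM (2.37 ± 0.34, adjusted p = 0.000325). Its highest 2-cell embryo was well below its lowest 4-cell embryo. Tomm5, a small subunit of the import pore of the outer mitochondrial membrane, went from 104, 146, 425, 332 and 186 CPM to 929, 1053 and 1130.3 CPM (2.12 ± 0.43, adjusted p = 0.00433). Dnajc15, a co-chaperone of the inner membrane import motor, went from 195, 194, 91.2, 486 and 214 CPM to 988, 710.4 and 1196 CPM (2.03 ± 0.42, adjusted p = 0.00472). Cox17, which carries copper to cytochrome c oxidase, varied more, with 66.3, 21.1, 449, 166 and 86.2 CPM at the 2-cell and 1304, 618 and 661 CPM at the 4-cell stage. Its rise of 2.45 ± 0.72 (adjusted p = 0.0335) was 3.34 without 2-cell embryo 3 and did not pass without 2-cell embryo 1, 2, 4 or 5 or 4-cell embryo 2, 3 or 4, with adjusted p up to 0.128. The other 3 of the 8, Rpl38, Rpl7 and Rps4x, are ribosomal protein genes and are given with their family.

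**Figure D3:**
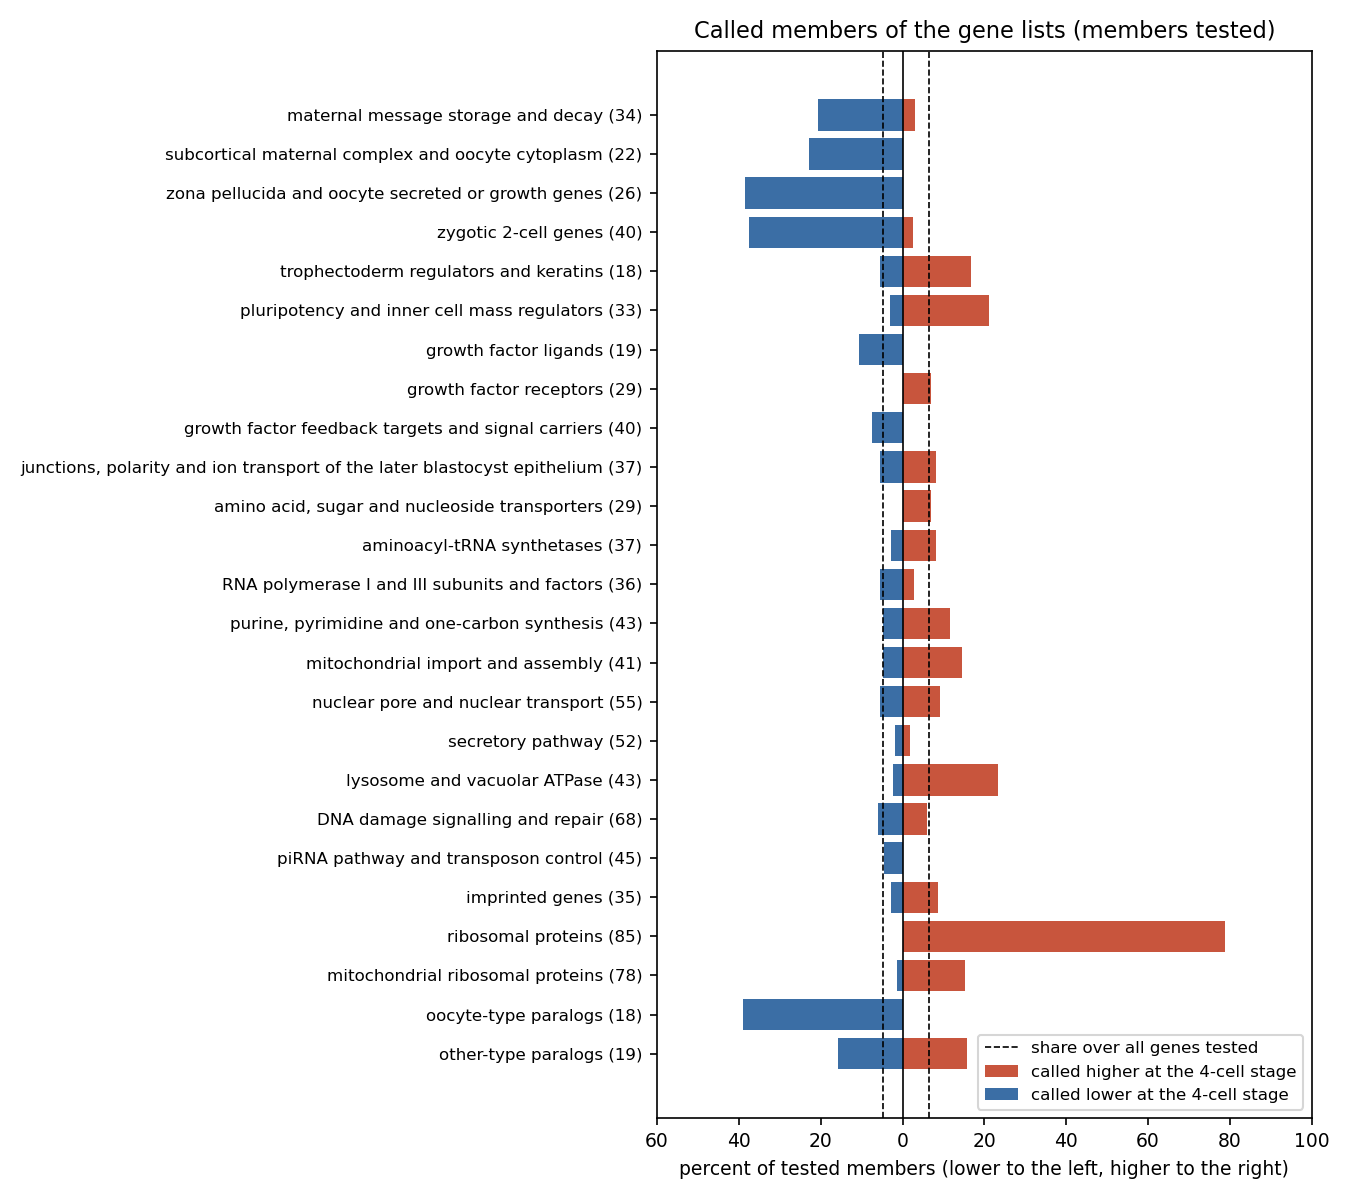
Percent of the tested members of each gene list that were called higher (right) or lower (left) at the 4-cell stage in separated embryos; the dashed lines mark the shares over all genes tested, 6.4% and 4.7%. Ribosomal proteins stand highest on the right and the oocyte and 2-cell lists reach farthest to the left.

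Maternal messages are held inactive by storage proteins and later cleared by deadenylases, decapping enzymes and nucleases. Of 34 tested members of a list of these storage and decay factors, 7 fell and 1 rose (23.5% called), with a median log2 fold change of −1.20 against −0.15 over all genes tested. The count of 7 became 4 without 4-cell embryo 2. Btg4, the adaptor that brings the CCR4-NOT deadenylase to maternal messages, was at 1407, 1893, 905, 653 and 1831 CPM in 2-cell embryos and at 55.6, 35.4 and 38.4 CPM in 4-cell embryos. All 3 of the latter lay far below all 5 of the former (−4.96 ± 0.49, adjusted p = 1.3e-05). Pan3, the regulatory subunit of the PAN2-PAN3 deadenylase, was even across the 2-cell embryos, at 319, 368, 356, 379 and 389 CPM, and fell to 97.6, 64.1 and 32.2 CPM (−2.49 ± 0.41, adjusted p = 0.000936). Marf1, an endonuclease needed in oocyte meiosis, fell from 149 ± 37.3 to 12.7 ± 2.06 CPM (SD, n = 5 and n = 3; −3.56 ± 0.68, adjusted p = 0.00294). The deadenylase subunit genes Cnot7 (369.8 ± 121 to 135 ± 31.5 CPM) and Cnot6l (119 ± 71.1 to 23.2 ± 7.83 CPM), the decapping enzyme gene Dcp2 (94.8 ± 42.3 to 17.5 ± 5.94 CPM) and the RNA granule gene Lsm14a (201 ± 49.6 to 57.3 ± 14.5 CPM) fell as well, with adjusted p from 0.0118 to 0.0298. Cnot7 did not pass without 4-cell embryo 2 or 3, with adjusted p up to 0.0924, Cnot6l not without 2-cell embryo 2 or 4-cell embryo 2, 3 or 4, with adjusted p up to 0.108 and Dcp2 not without 4-cell embryo 2, with adjusted p up to 0.0606. The member that rose was Paip2, a repressor of poly(A)-binding protein (219 ± 156 to 578 ± 156 CPM, adjusted p = 0.0387). 2-cell embryo 4 was at 496 CPM for it, inside the range of the 4-cell embryos, and the call was lost without 2-cell embryo 1, 2, 3 or 5 or 4-cell embryo 2, 3 or 4, with adjusted p up to 0.152.

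Of 22 members of the subcortical maternal complex and other oocyte cytoplasmic proteins, 5 fell and 0 rose (22.7% called, median −2.58). The summed CPM of the list overlapped between the stages, 18062 to 35810 against 26720 to 33810, and Dppa3, a maternal factor that protects DNA methylation, made up most of it, at 25884 ± 7501 CPM and 29161 ± 3363 CPM (adjusted p = 0.692). The count of 5 became 3 without 2-cell embryo 5 or 4-cell embryo 3 or 4. Zbed3, a partner of that complex, fell from 481, 480.3, 303, 169 and 608 CPM to 20.9, 25.5 and 12.4 CPM (−4.38 ± 0.65, adjusted p = 0.00042), with no overlap. The NLR family gene Nlrp9c went from 1849, 1235, 1955, 1031 and 2188 CPM to 423, 239.5 and 97.2 CPM (−2.70 ± 0.45, adjusted p = 0.000976). Oas1d, an oocyte-specific oligoadenylate synthetase without the enzymatic activity of its relatives, fell from 40.8 ± 21.3 to 1.91 ± 1.94 CPM (−4.41 ± 1.11, adjusted p = 0.0164, −5.51 without 4-cell embryo 4), and did not pass without 4-cell embryo 3, with adjusted p up to 0.0567. Nlrp4f fell from 97.4 ± 60.02 to 6.70 ± 5.19 CPM (adjusted p = 0.0432) and did not pass without 2-cell embryo 1, 2 or 5 or 4-cell embryo 2, 3 or 4, with adjusted p up to 0.133. The fifth member, Npm2, is described with its paralog. Of the core subunits, singled out after their values were seen, Ooep, Khdc3, Tle6, Padi6 and Nlrp5 did not pass, and Nlrp5 was at 34.6 ± 8.84 CPM against 8.99 ± 12.5 CPM (adjusted p = 0.158).

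The zona pellucida and oocyte secreted or growth genes changed in 1 direction only among the calls: 10 of 26 tested fell and 0 rose (38.5% called, median −3.31). Their summed level went from 47071, 53905, 33631, 30124 and 43089 CPM in 2-cell embryos to 3748, 900.2 and 755 CPM in 4-cell embryos. Omt2a and Omt2b made up most of that level, and 4-cell embryo 2 again kept the most. Oosp3 fell from 1146, 553, 827, 624 and 1749.9 CPM to 24.7, 15.5 and 3.70 CPM (−6.06 ± 0.89, adjusted p = 0.000417, −6.66 without 4-cell embryo 2). The zona protein genes Zp2 and Zp3, which encode the coat of the egg, were not called (adjusted p = 0.615 and 0.348).

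A group of genes is transcribed from the embryo's genome at the 2-cell stage and then silenced. Of 40 tested members of this list, 15 fell and 1 rose (40.0% called, median −3.82). The count of 15 became 9 without 4-cell embryo 2 or 4. Many of these genes are members of multicopy families, so that reads shared between copies may have been divided among them. Promoters of 2 members that fell are shown; they are the 150 bases before the annotated start in RefSeq (GRCm38.p6), with CCAAT, on either strand, and TATAAA, on the forward strand, in capitals.
Zscan4f, chr7:11397765-11397914, plus strand: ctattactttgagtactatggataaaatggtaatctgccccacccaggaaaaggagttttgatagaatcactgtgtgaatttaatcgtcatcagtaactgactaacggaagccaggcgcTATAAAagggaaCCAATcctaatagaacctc
Obox3, chr7:15639778-15639927, minus strand: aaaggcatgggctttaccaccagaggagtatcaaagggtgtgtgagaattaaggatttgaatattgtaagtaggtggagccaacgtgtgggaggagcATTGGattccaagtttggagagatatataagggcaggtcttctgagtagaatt
The Zscan4f stretch holds TATAAA 31 bases and CCAAT 19 bases before the start, and the Obox3 stretch holds CCAAT on the reverse strand, 53 bases before it. Of the 26 list members with a promoter of 300 bases in the table, 9 hold TATAAA (34.6%), against 8.88% of 27025 promoters, and 18 hold CCAAT (69.2%), against 37.9%. The letters GGATTA, on either strand, a core that paired-like homeobox proteins such as the Obox family can bind, occur in 5 of the 26 (19.2%), against 7.16%. The core of the TEAD factors, GGAATG, also searched on both strands, occurs in 2 of the 26 (7.69%), against 14.6%. The median GC content was 46% in the 26 promoters, against 52.7% in all 27025. These shares are descriptions, and the copies within a family share sequence.

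Obox3, a homeobox gene, was at 508, 629, 522, 379 and 599 CPM in 2-cell embryos and at 3.26, 1.60 and 8.72 CPM in 4-cell embryos, a log2 fold change of −6.87 ± 0.91 (adjusted p = 0.000163; −7.80 without 4-cell embryo 4). Rfpl4b, of a ret finger protein-like family, went from 1061, 743, 817, 803 and 1633 CPM to 23.4, 25.3 and 3.24 CPM (−5.87 ± 0.69, adjusted p = 5.64e-05). Zscan4f, a zinc finger gene linked to telomere maintenance, was at 23.1, 35.1, 7.62, 20.2 and 53.4 CPM and then at 0.0723, 0.384 and 0.0771 CPM (−7.24 ± 1.40, adjusted p = 0.00314; −8.49 without 4-cell embryo 3). In all 3 genes the embryo groups lay far apart, and the 4-cell level of Zscan4f rested on 8 counts. The other markers of the stage fell to low levels too: Zfp352 from 146 ± 103 to 2.13 ± 2.98 CPM, Tcstv1 from 108 ± 35.4 to 0.354 ± 0.0694 CPM, Tcstv3 from 245 ± 78.8 to 3.93 ± 5.07 CPM and Zscan4d from 114 ± 78.8 to 2.64 ± 3.87 CPM (adjusted p = 0.00711, 0.0106, 0.011 and 0.0235). At the intact stages Tcstv1 was at 66.4 ± 63.3 and 13.2 ± 15.3 CPM and did not pass (adjusted p = 0.226). The call of Zscan4d was lost without 4-cell embryo 2 or 4, with adjusted p up to 0.0831. 4-cell embryo 3 held most of what was left of Zfp352, Tcstv3 and Zscan4d. The exception among the calls was Ubtfl1, a relative of an RNA polymerase I factor, which was at 243, 183, 274, 206 and 281 CPM and then at 274, 627 and 529 CPM (1.01 ± 0.32, adjusted p = 0.0484). Its groups overlapped, and the call was lost without 2-cell embryo 1, 2, 3, 4 or 5 or 4-cell embryo 3 or 4, with adjusted p up to 0.252.

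Foxa1 and H2ac4 were chosen for their pattern, with no count in any of the 10 2-cell blastomeres and a count in all 12 4-cell blastomeres. Foxa1 is a pioneer transcription factor that opens compact chromatin, and H2ac4 is a replication-dependent histone H2A gene. Their promoters, 150 bases before the RefSeq start (GRCm38.p6), are shown because these 2 genes went from no 2-cell blastomere to all 4-cell blastomeres, with CCAAT and TATAAA in capitals as above.
Foxa1, chr12:57546112-57546261, minus strand: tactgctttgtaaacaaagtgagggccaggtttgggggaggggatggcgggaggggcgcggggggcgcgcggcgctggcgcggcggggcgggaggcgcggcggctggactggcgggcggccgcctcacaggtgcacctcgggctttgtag
H2ac4, chr13:23750938-23751087, plus strand: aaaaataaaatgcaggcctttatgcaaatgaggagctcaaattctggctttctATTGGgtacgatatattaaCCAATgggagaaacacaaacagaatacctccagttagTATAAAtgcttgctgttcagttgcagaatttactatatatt
The Foxa1 stretch holds neither motif. It lies inside the gene as GENCODE M21 bounds it (chr12:57540628-57546916), and the bases before that farther start were not searched. The H2ac4 stretch holds CCAAT 78 bases before the start, the same letters on the reverse strand 97 bases before it and TATAAA 41 bases before it.

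Foxa1 (chr12:57540628-57546916) stood at 41.3, 57.1 and 68.9 CPM in the 3 4-cell embryos (adjusted p = 5.57e-05). This was 3134-fold higher than at the 2-cell stage when that group is set at 3 counts. Such a fold, here and below, leaves out the spread between embryos. The 2 separated 4-cell embryos of batch 2, which were not in the comparison, were at 67.1 and 69.4 CPM. Batch 2 was not alike for all genes that rose. There Fbxo15 was at 3127 and 3648 CPM and Impdh2 at 1759 and 1861 CPM, above all separated 2-cell embryos. Rpl41, at 2288 and 2092 CPM, lay below all separated 2-cell embryos (3001 to 5716 CPM). Rpl38, at 199.6 and 189.9 CPM, lay within their range (159.7 to 451 CPM). Among the genes of highest CPM that rose, Dppa5a, Dnajc15 and Cox17 also lay within their 2-cell ranges. They were at 1229 and 594, 240 and 254, and 39.3 and 74.2 CPM. The others of that set, Lrr1, Tomm5, Rpl7 and Rps4x, lay above all separated 2-cell embryos. Timm17a, Spcs1 and Hprt lay within their 2-cell ranges, and Cox6b1, at 98.4 and 135 CPM, reached below its own. Lamp2, Ipo5 and Ctsa were among the genes above theirs. H2ac4 was at 14.98, 28.6 and 43.4 CPM in the 4-cell embryos, 1619-fold higher against 3 counts (adjusted p = 0.000394). Most histone messages of this type end without poly(A), so priming on poly(A) sees only some of them. The other gene of this kind is a predicted one, and the 3 are 0.0212% of the genes tested. Going the other way, 10 genes had a count in all 10 2-cell and in no 4-cell blastomere, of which 7 were tested (0.0496%), and all but the T cell receptor segment Trav7-6, not tested at 73 counts, are predicted genes. The 3 became 5 to 7 without 2-cell embryo 4 or 4-cell embryo 2 or 3, and the 10 became 16 to 24 without 2-cell embryo 3 or 4 or 4-cell embryo 2 or 3.

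Regulators of the inner cell mass and of pluripotency rose more often than they fell: of 33 tested, 7 rose and 1 fell (24.2% called, median 1.25). The summed level of this list went from 2202, 2069, 1498, 4289 and 2002 CPM to 9117, 7851 and 7237 CPM. The count of 7 rises became 4 without 2-cell embryo 3 or 5 or 4-cell embryo 3. Sox21, an SRY-box factor known to vary between blastomeres of the 4-cell embryo, had no count in 2-cell embryos. It was at 22.1, 38.6 and 10.96 CPM in 4-cell embryos, 1397-fold higher against 3 counts (adjusted p = 0.000856). It had a count in 6 of the 12 4-cell blastomeres. Fbxo15, an F-box gene of embryonic stem cells, rose from 430.5, 391, 486, 746 and 437 CPM to 1454, 1277 and 2094 CPM (1.69 ± 0.27, adjusted p = 0.00074). Nr5a2, a nuclear receptor of genome activation, rose from 83.3 ± 36.5 to 194 ± 66.8 CPM (adjusted p = 0.043) and Dppa2, a chromatin factor, from 248 ± 133 to 706 ± 206 CPM (adjusted p = 0.0276), calls that were lost without 2-cell embryo 1, 3, 4 or 5 or 4-cell embryo 2, 3 or 4, with adjusted p up to 0.227 and without 2-cell embryo 2, 3 or 5 or 4-cell embryo 3 or 4, with adjusted p up to 0.129. The member that fell was the T-box gene Tbx3, from 3.83, 3.55, 8.79, 6.56 and 0.135 CPM to none. The fall was 68.7-fold with the 4-cell group set at 3 counts, with an adjusted p of 0.0418. This call was lost without 2-cell embryo 1, 2, 3 or 4 or 4-cell embryo 2, 3 or 4, with adjusted p up to 0.115. In batch 2 Tbx3 was at 5.59 and 0.409 CPM. At the intact stages Tbx3 was at 6.95 ± 7.66 and 2.56 ± 2.96 CPM and did not pass (adjusted p = 0.646). Of the best known factors, singled out after their values were seen, Nanog was at 2.72, 0.961, 0.728, 1.01 and 1.68 CPM and then at 8.75, 8.51 and 12.4 CPM, without overlap and without passing (adjusted p = 0.0691), and Sox2 had no count at either stage.

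Of the trophectoderm regulators and keratins, 18 were tested, 3 rose and 1 fell (22.2% called, median 0.32). Tead4, the DNA-binding partner of YAP that starts the trophectoderm program, had 31 counts in all 2-cell embryos together, from 2 of 10 blastomeres, and 33.1, 49.1 and 34.6 CPM in 4-cell embryos, where all 12 blastomeres had it. The log2 fold change was 8.09 ± 1.73 (adjusted p = 0.0064), or 11.27 without 2-cell embryo 4. In intact embryos Tead4 was at 2.68 ± 3.77 and 19.2 ± 13.4 CPM at the 2 stages, with overlap, and did not pass (adjusted p = 0.183). Id3, an inhibitor of helix-loop-helix factors, went from 0, 0, 0.777, 0 and 0.0674 CPM to 20.1, 13.3 and 44.98 CPM, with counts in 8 of 12 4-cell blastomeres (7.30 ± 1.76, adjusted p = 0.0133; 10.85 without 2-cell embryo 3 and 6.56 without 4-cell embryo 4). Id2, its relative, went the other way, from 166, 275, 399, 52.4 and 15.1 CPM to 6.73, 36.5 and 0.386 CPM. The groups of Id2 overlapped, and its fall (adjusted p = 0.0474) was lost without 2-cell embryo 1, 2 or 3 or 4-cell embryo 2 or 4, with adjusted p up to 0.155. The Kruppel-like factor gene Klf5 was at 89.8, 162, 92.6, 84.04 and 88.1 CPM and then at 354, 217 and 294 CPM (1.48 ± 0.47, adjusted p = 0.0464), which did not pass without 2-cell embryo 1, 3, 4 or 5 or 4-cell embryo 2, 3 or 4, with adjusted p up to 0.148. At the intact stages Klf5 was at 113 ± 71.3 and 106 ± 17.3 CPM and did not pass (adjusted p = 0.928). In batch 2 it was at 126 and 283 CPM. Cdx2, the later master regulator of the trophectoderm, had no count at either stage.

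Over all genes tested 11.1% were called, 6.4% higher and 4.7% lower, and the 3 signalling lists stood near or below the first share. Of 19 growth factor ligands tested, 2 fell and 0 rose (10.5% called), and 21 of the 53 on the list had no count in the separated embryos. The 2 falls became 1 without 4-cell embryo 2, 3 or 4. The transforming growth factor gene Tgfb2 was at 134, 324, 109, 104 and 177 CPM in 2-cell embryos and at 9.04, 17.9 and 6.09 CPM in 4-cell embryos, without overlap (−3.95 ± 0.97, adjusted p = 0.0145, lost without 4-cell embryo 2 or 4, with adjusted p up to 0.0629). Bmp15, a growth factor of the oocyte, went from 119, 184, 248, 49.04 and 229 CPM to 0.506, 2.18 and 18.1 CPM (−4.59 ± 1.13, adjusted p = 0.0147, −6.98 without 4-cell embryo 4, lost without 4-cell embryo 3, with adjusted p up to 0.0587). Of 29 receptors, 2 rose and 0 fell (6.90% called), and the 2 rises became 1 without 2-cell embryo 1, 2, 3 or 5 or 4-cell embryo 2 or 3. Ptch1, the Hedgehog receptor and also a target of that pathway, had 1 count in 2-cell embryos and 28.4, 25.9 and 13.9 CPM in 4-cell embryos, which is 3903 times as much, with a counting interval from 699 to 154330.0 and an adjusted p of 0.0127. At the intact stages Ptch1 was at 0.658 ± 1.47 and 3.06 ± 3.19 CPM and did not pass (adjusted p = 0.489). Fgfr3, a fibroblast growth factor receptor, had no count in 2-cell embryos and was at 2.60, 3.58 and 0 CPM in 4-cell embryos, with counts in 3 of 12 blastomeres and none in embryo 4 (adjusted p = 0.039, lost without 2-cell embryo 1, 2, 3, 4 or 5 or 4-cell embryo 2 or 3, with adjusted p up to 0.0753). Among 40 feedback targets and signal carriers 3 fell and 0 rose (7.50% called). The 3 falls became 1 without 4-cell embryo 2, 3 or 4, and the count of rises became 1 without 2-cell embryo 4. Spry4, an inhibitor of receptor tyrosine kinase signalling, fell from 103, 98.95, 78.98, 44.1 and 67.2 CPM to 0.0723, 1.86 and 0.0771 CPM (−6.85 ± 1.41, adjusted p = 0.00474; −9.97 without 4-cell embryo 3). At the intact stages Spry4 was at 72.2 ± 22.0 and 13.1 ± 14.9 CPM and did not pass (adjusted p = 0.108), and in batch 2 it was at 20.2 and 6.76 CPM. Axin2 and Tcf7, which are both targets and components of WNT signalling, fell from 8.64 ± 11.6 to 0.0470 ± 0.0413 CPM and from 9.54 ± 9.33 CPM to no count (adjusted p = 0.0388 and 0.0251), and were lost without 2-cell embryo 2 or 4-cell embryo 2, 3 or 4, with adjusted p up to 0.117 and without 4-cell embryo 2, 3 or 4, with adjusted p up to 0.0755. Neither Axin2 nor Tcf7 passed between the intact stages (adjusted p = 0.226 and 0.457).

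The genes of junctions, polarity and ion transport that the blastocyst epithelium later uses showed 3 rises and 2 falls among 37 tested (13.5% called, median 0.13). The 3 rises became 1 without 2-cell embryo 1, 2, 3 or 5 or 4-cell embryo 4, and the 2 falls became 0 without 4-cell embryo 2, 3 or 4, 1 without 2-cell embryo 1, 2 or 4. Gja1, which encodes the gap junction protein connexin 43, rose from 31.9, 3.41, 3.54, 24.3 and 30.5 CPM to 277, 106 and 166 CPM (3.29 ± 0.74, adjusted p = 0.00886), with the lowest 4-cell embryo above all 2-cell embryos. The sodium pump subunit gene Atp1b3 was at 148 ± 74.1 CPM and then at 349 ± 49.6 CPM (adjusted p = 0.0374), and Pals1 (listed as Mpp5), a scaffold of apical polarity, at 53.2 ± 37.9 CPM and then at 5.55 ± 4.28 CPM (adjusted p = 0.0319). Both calls were lost on leaving out most single embryos, that of Atp1b3 without 2-cell embryo 1, 2, 3 or 5 or 4-cell embryo 2, 3 or 4, with adjusted p up to 0.124 and that of Pals1 without 2-cell embryo 2 or 4 or 4-cell embryo 2, 3 or 4, with adjusted p up to 0.0983. Of 29 transporters for amino acids, sugars and nucleosides, 2 rose and 0 fell (6.90% called), and the 2 rises became 1 without 2-cell embryo 2 or 5 or 4-cell embryo 2, 3 or 4. At the intact stages Slc38a2, a sodium-coupled amino acid carrier, was at 0.222 ± 0.496 and 3.20 ± 2.25 CPM and did not pass (adjusted p = 0.228). In separated 4-cell embryos Slc38a2 was at 12.5, 2.18 and 17.4 CPM, from 3 of 12 blastomeres (adjusted p = 0.0139). Slc38a2 had no count in separated 2-cell embryos, and its rise was 575-fold against 3 counts. Its imprinted relative Slc38a4 was at 17.1, 0.0640 and 0 CPM, which is almost all embryo 2, and its call (adjusted p = 0.0477) was lost without 2-cell embryo 1, 2, 3, 4 or 5 or 4-cell embryo 2, 3 or 4, with adjusted p up to 0.35.

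Oocytes use their own versions of several common proteins, and 20 pairs of an oocyte-type or germline-type gene and a more widely expressed relative were followed. Of the 18 oocyte-type members tested, 7 fell and 0 rose (38.9% called, median −3.19), and of the 19 other members tested, 3 rose and 3 fell (31.6% called, median −0.40). The count of 7 falls became 4 without 4-cell embryo 3. The summed level of the first went from 3854, 3126, 2688, 2015 and 3443 CPM to 466, 313 and 344 CPM, and that of the second from 8711, 8104, 8738, 10526 and 8102 CPM to 9557, 8756 and 11694 CPM. In 2 pairs the members were called in opposite directions. Cox6b2, the testis-type subunit 6B of cytochrome c oxidase, fell from 2360.2, 1378, 1625, 1032 and 1400.2 CPM to 107, 42.5 and 37.3 CPM (−4.65 ± 0.56, adjusted p = 7.31e-05, or −5.28 without 4-cell embryo 2). Its common relative Cox6b1 rose from 237, 274, 118, 248 and 169 CPM to 513, 477 and 659 CPM (1.39 ± 0.30, adjusted p = 0.00709). In neither gene did the embryo groups overlap. Npm2, the egg nucleoplasmin that unpacks sperm chromatin, fell from 185, 233, 274, 209 and 327 CPM to 121, 103 and 80.8 CPM (−1.28 ± 0.36, adjusted p = 0.0301, lost without 2-cell embryo 5 or 4-cell embryo 2, 3 or 4, with adjusted p up to 0.109). Npm1, the nucleolar member of that family, rose from 1156, 1537, 2664, 2544 and 1486 CPM to 3451, 3598 and 6053 CPM (1.22 ± 0.29, adjusted p = 0.0118, lost without 4-cell embryo 4, with adjusted p up to 0.107).

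In other pairs 1 member was called. Ldhb, the lactate dehydrogenase subunit of the egg, fell from 243 ± 70.4 to 54.9 ± 12.97 CPM (−2.14 ± 0.43, adjusted p = 0.00368), and Ldha had 6 counts in all 2-cell and 1 count in all 4-cell embryos. Uchl1, a ubiquitin hydrolase abundant in oocytes and neurons, fell from 187 ± 73.95 to 17.1 ± 9.14 CPM (−3.45 ± 0.68, adjusted p = 0.00341), while Uchl3 was at 583 ± 257 and 390.1 ± 254 CPM (adjusted p = 0.46). The Y-box RNA-binding protein gene Ybx1 rose from 93.96 ± 23.5 to 317 ± 84.8 CPM (1.76 ± 0.33, adjusted p = 0.00258), and its germline relative Ybx2 was at 3.47 ± 2.53 and 1.36 ± 2.36 CPM (adjusted p = 0.739). Pabpn1, the nuclear poly(A)-binding protein placed on the common side, fell from 1741, 1589, 2538, 1368 and 1704 CPM to 204, 223 and 127 CPM (−3.27 ± 0.43, adjusted p = 0.000158), against the direction of its side, and the oocyte-type Pabpn1l had 63 counts at the 2-cell stage and 1 count at the 4-cell stage. Rfpl4 and Rfpl4b both fell, Rfpl4 from 416 ± 229.6 to 40.2 ± 12.7 CPM (−3.37 ± 0.56, adjusted p = 0.00108), and both are genes of the oocyte and early embryo. Between Oas1d and Oas1a, Nlrp4f and Nlrp2, and Lsm14b and Lsm14a, the first, the first and the second member fell. No member was called in the remaining 10 pairs, among them the linker histones H1f8 (30.2, 76.3, 7.62, 49.2 and 140.1 CPM, then 0.0723, 0.192 and 18.4 CPM, adjusted p = 0.194) and H1f0 (12.8, 3.84, 0.583, 0.0591 and 6.33 CPM, then 19.2, 82.8 and 33.9 CPM, adjusted p = 0.152).

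**Figure D4:**
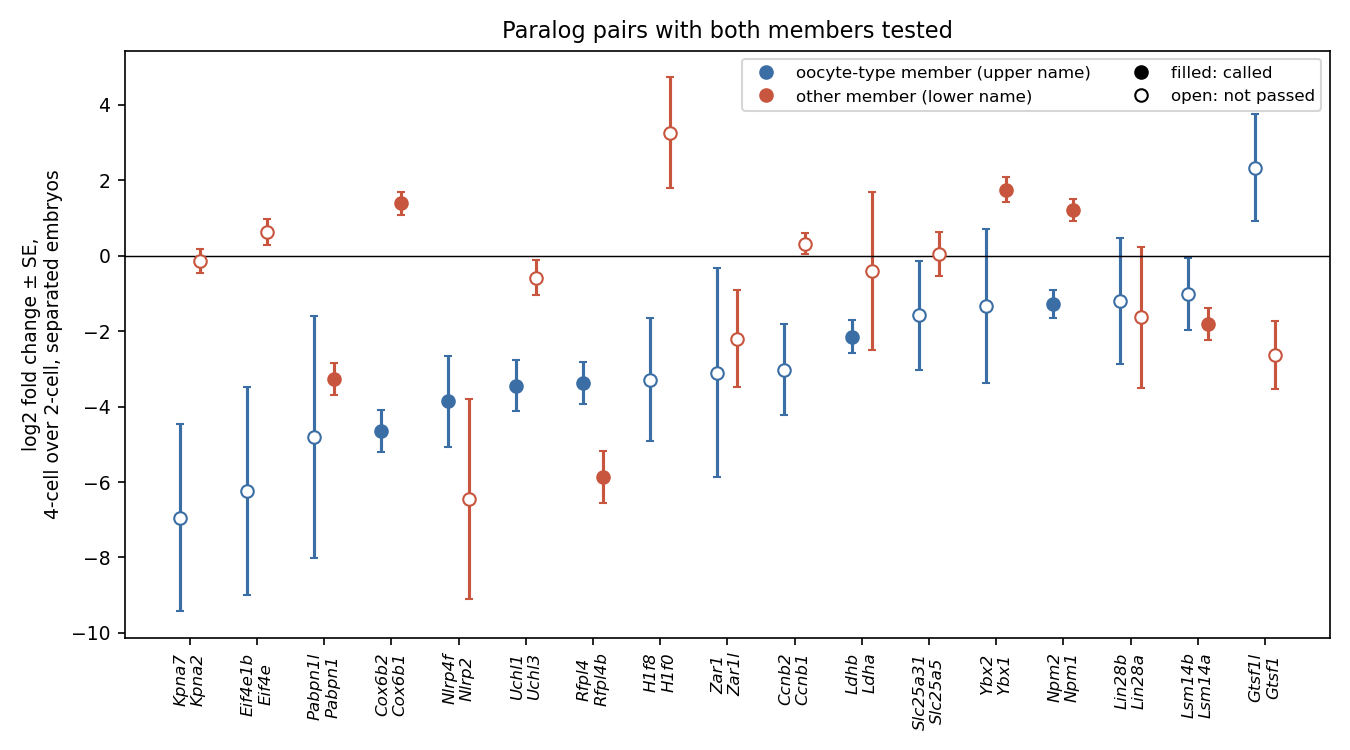
Log2 fold change between 4-cell and 2-cell stage (bars: SE) of the oocyte-type and the other member of each pair in which both were tested, separated embryos. The oocyte-type members called lie below 0, and the Cox6b2 and Npm2 pairs have members called on opposite sides of 0.

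Cytosolic ribosomal protein genes, whose products form the translation machinery, moved as 1 group: 67 of 85 tested rose and 0 fell (78.8% called, median 1.51). Their summed level went from 35818, 35652, 25834, 47956 and 24236 CPM in 2-cell embryos to 88822, 79072 and 89070.0 CPM in 4-cell embryos, without overlap. These genes have many processed pseudogenes, among which reads can be divided. The count of rises was 49 to 71 with 1 embryo left out. Messages of this family often begin with a run of pyrimidines at the cap (the 5′TOP type), so the bases at the annotated start of 4 of them are shown, 10 before and 20 from the start, with a run of pyrimidines that begins with C within 5 bases of the start in capitals (RefSeq, GRCm38.p6).
Rpl38, chr11:114668570-114668599, plus strand: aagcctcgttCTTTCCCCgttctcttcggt
Rps18, chr17:33955646-33955675, minus strand: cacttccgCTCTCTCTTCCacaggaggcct
Rpl41, chr10:128549149-128549178, minus strand: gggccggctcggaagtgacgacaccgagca
Rps4x, chrX:102189372-102189401, minus strand: gctgggcggagcaacccaggctccagcgcg
The run is 8 bases long in Rpl38 and 11 in Rps18, and no run of 5 or more starts in that window in Rpl41 or Rps4x as annotated. Of the 63 family members with an entry, 29 have such a run (46.0%), against 18.5% of 27025 promoters, and among the 50 with an entry that rose, 24 have it (48.0%).

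Rpl38 went from 232, 213, 451, 356 and 159.7 CPM to 1675, 1426 and 1758 CPM (2.52 ± 0.48, adjusted p = 0.00294), and Rps18 from 30.5, 36.7, 14.7, 54.9 and 17.5 CPM to 181, 238 and 183 CPM (2.698 ± 0.43, adjusted p = 0.000747). Rps4x, without the run, went from 91.1, 125, 88.9, 589 and 246 CPM to 1241, 1002 and 888 CPM (2.20 ± 0.55, adjusted p = 0.0158), with 2-cell embryo 4 high in its group, and was 2.92 without 2-cell embryo 4. Rpl41, also without it, went from 4112, 3001, 3792, 5716 and 3232 CPM to 9613, 7765 and 12966 CPM (1.35 ± 0.20, adjusted p = 0.000407). Rpl7 went from 145, 276, 237, 377 and 197 CPM to 1094, 1036 and 1294 CPM (2.21 ± 0.39, adjusted p = 0.00178), and Rpl21 from 280.1 ± 34.9 to 1044 ± 116 CPM (adjusted p = 0.000325). In all 6 genes the lowest 4-cell embryo of batch 1 was above the highest 2-cell embryo. In batch 2 Rpl38 and Rpl41 were not above the range of the separated 2-cell embryos, while Rpl7, Rps18, Rps4x and Rpl21 were. The 18 members that did not pass include the testis or muscle paralogs Rpl39l, Rpl10l and Rpl3l, and Rpl3l and Rps27l alone had a fold change below 0.

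Mitochondrial ribosomal proteins had a median of 1.33 but fewer calls: 12 of 78 rose and 1 fell (16.7% called), and in 31 of the 78 all 4-cell embryos lay above all 2-cell embryos (11.7% of all genes tested). Mrps18a had 2 counts in the 2-cell embryos and 122, 168 and 110.2 CPM in the 4-cell embryos, with counts in all 12 blastomeres (adjusted p = 0.00042). Mrpl47 rose from 59.4, 29.1, 22.3, 21.8 and 18.999 CPM to 232, 127 and 198 CPM (2.62 ± 0.45, adjusted p = 0.00131). Mrpl19 went from 1 count to 4.05, 4.73 and 4.01 CPM, which is 726 times as much, with a counting interval from 129 to 28846 and an adjusted p of 0.00232. The count of rises was 8 to 18 with 1 embryo left out, and that of falls became 0 without 2-cell embryo 2 or 4-cell embryo 3 or 4.

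Genes of enzymes that feed translation were called at shares near or below the 11.1% of all genes tested. Of 37 aminoacyl-tRNA synthetases, 3 rose and 1 fell (10.8% called, median 0.74), and the count of falls became 0 without 2-cell embryo 2 or 4-cell embryo 3 or 4, 2 without 4-cell embryo 2. Wars, the cytosolic tryptophan enzyme, had 1 count in 2-cell embryos and 6.08, 9.34 and 12.04 CPM in 4-cell embryos, which is 1541 times as much, with a counting interval from 275 to 61005 and an adjusted p of 0.00211, and Yars2, the mitochondrial tyrosine enzyme, 1 count and 10.9, 4.99 and 15.8 CPM, which is 1728 times as much, with a counting interval from 309 to 68414 and an adjusted p of 0.0117. Wars was present in intact 2-cell embryos (7.16 ± 10.8 CPM, n = 5) and did not pass between the intact stages (adjusted p = 1). Yars2 was at 2.20 ± 4.84 and 18.98 ± 17.96 CPM at the intact stages and did not pass there (adjusted p = 0.251). Fars2, the mitochondrial phenylalanine enzyme, fell from 131 ± 60.3 to 18.8 ± 17.01 CPM (adjusted p = 0.0387) and was lost without 2-cell embryo 1 or 2 or 4-cell embryo 3 or 4, with adjusted p up to 0.103. Of 36 subunits and factors of RNA polymerases I and III, 2 fell and 1, Ubtfl1, rose (8.33% called). The 2 falls became 1 without 2-cell embryo 2 or 3 or 4-cell embryo 2, 3 or 4. Gtf3c6, of the polymerase III factor TFIIIC, fell from 343, 381, 289, 429 and 273 CPM to 81.7, 83.9 and 62.3 CPM (−2.18 ± 0.41, adjusted p = 0.00283). Taf1d, of the polymerase I factor SL1, fell from 1523 ± 526 to 689.8 ± 206 CPM (adjusted p = 0.0352, lost without 2-cell embryo 2 or 3 or 4-cell embryo 2, 3 or 4, with adjusted p up to 0.133).

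Nucleotide and one-carbon synthesis had 5 rises and 2 falls among 43 genes (16.3% called, median 0.69). The summed level was 5562, 5966, 4953, 9914 and 5725 CPM in 2-cell embryos and 14309, 12107 and 11152 CPM in 4-cell embryos, with 2-cell embryo 4 nearest to the latter. The 5 rises became 3 without 4-cell embryo 3 or 4. Impdh2, the rate-limiting enzyme of guanine nucleotide synthesis, rose from 27.1, 38.4, 83.9, 33.2 and 40.2 CPM to 312, 353 and 420.0 CPM (3.02 ± 0.50, adjusted p = 0.00102). Ppat, which catalyses the first committed step of purine synthesis, rose from 148, 130.0, 103, 139 and 104 CPM to 459, 325 and 294 CPM (1.52 ± 0.31, adjusted p = 0.00466). The purine salvage enzyme gene Hprt rose from 1653 ± 926 to 5356 ± 1217 CPM (adjusted p = 0.0119) and gave most of the rise in the summed level. At the intact stages Hprt was at 1312 ± 692 and 2160 ± 732 CPM and did not pass (adjusted p = 0.214). Dut, which keeps uracil out of DNA by degrading dUTP, fell from 711, 730.3, 417, 175 and 379 CPM to 104, 42.8 and 83.2 CPM (−2.65 ± 0.51, adjusted p = 0.00294). The embryo groups of these 4 genes did not overlap.

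Mitochondrial import and assembly showed 6 rises and 2 falls among 41 genes (19.5% called, median 0.88). The 6 rises became 10 without 2-cell embryo 4 and 4 without 4-cell embryo 2 or 4. Besides Tomm5, the import pore gene Timm17a rose from 735, 923, 442, 1386 and 619 CPM to 3399, 2201 and 2449.6 CPM (1.71 ± 0.37, adjusted p = 0.00644). Immp1l, a peptidase of the inner membrane, fell from 677, 412, 284, 191 and 517 CPM to 42.03, 45.7 and 43.5 CPM (−3.25 ± 0.55, adjusted p = 0.0012), and its 3 4-cell embryos were alike. Of 55 nuclear pore and transport genes, 5 rose and 3 fell (14.5% called). The 5 rises became 2 without 4-cell embryo 4, 3 without 4-cell embryo 3, and the 3 falls became 1 without 2-cell embryo 2 or 4-cell embryo 2 or 4. Xpo1, the main export receptor, rose from 176, 124, 285, 411 and 213 CPM to 643, 829.5 and 734 CPM (1.61 ± 0.31, adjusted p = 0.00294). The import receptor genes Ipo5 and Ipo8 went opposite ways: Ipo5 rose from 152, 119, 64.95, 179 and 119.6 CPM to 365, 362 and 386 CPM (1.55 ± 0.38, adjusted p = 0.0148), and Ipo8 fell from 168, 195, 162, 44.5 and 107 CPM to 21.6, 19.4 and 10.1 CPM (−2.99 ± 0.63, adjusted p = 0.00593). In the secretory pathway 1 of 52 genes rose and 1 fell (3.85% called). The count of rises became 3 without 2-cell embryo 2 or 4, and that of falls 0 without 4-cell embryo 2. Spcs1, of the signal peptidase, rose from 88.4, 91.8, 50.97, 129.8 and 52.7 CPM to 378, 471 and 391 CPM (2.32 ± 0.43, adjusted p = 0.00253), and Sec61a2, a channel subunit of protein translocation, fell from 344 ± 128 to 74.1 ± 58.5 CPM (adjusted p = 0.0241, lost without 4-cell embryo 2, with adjusted p up to 0.0583).

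Lysosomal genes gave 10 rises and 1 fall among 43 tested (25.6% called, median 1.10). Their summed level went from 3345, 3675, 2640.2, 2961 and 2856 CPM to 5574, 5672 and 5752 CPM, with 2-cell values spread over a wider range and all below the 4-cell values. The count of 10 became 4 without 4-cell embryo 3, 5 without 4-cell embryo 4, 6 without 2-cell embryo 1 or 3 or 4-cell embryo 2, and that of falls 2 without 2-cell embryo 4. Gaa, the lysosomal glucosidase, was at 7.38, 7.23 and 19.7 CPM in 4-cell embryos, from 9 of 12 blastomeres (adjusted p = 0.00258). In 2-cell embryos it had no count, and its rise was 627-fold against 3 counts. Atp6ap1, an accessory subunit of the vacuolar proton pump, also had none and was at 13.7, 0.0640 and 6.94 CPM, from 5 of 12 blastomeres (adjusted p = 0.0021). Ctsa, a protective carboxypeptidase, rose from 20.5, 45.7, 27.1, 14.1 and 16.5 CPM to 179, 104 and 141 CPM (2.51 ± 0.47, adjusted p = 0.0026). The membrane protein gene Lamp2 rose from 230.2 ± 56.3 to 717 ± 135 CPM (adjusted p = 0.0129) and the protease gene Ctsl from 534 ± 206 to 1145 ± 202 CPM (adjusted p = 0.0278, lost without 2-cell embryo 1, 3 or 5 or 4-cell embryo 2 or 3, with adjusted p up to 0.116). The gene that fell, Atp6v1h, encodes the regulatory subunit H of the pump and went from 142, 91.7, 63.01, 68.3 and 84.01 CPM to 2.82, 4.80 and 8.25 CPM (−4.08 ± 0.73, adjusted p = 0.00181).

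DNA damage and repair genes had 4 rises and 4 falls among 68 (11.8% called, median 0.04). The 4 falls became 2 without 4-cell embryo 3 or 4. Pms2, of mismatch repair, fell from 133, 170.0, 261, 79.4 and 100.1 CPM to 5.86, 13.8 and 10.3 CPM (−3.89 ± 0.73, adjusted p = 0.00255). Atrip, the partner of the checkpoint kinase ATR, rose from 0.0761, 0.0686, 1.02, 0.296 and 0.674 CPM to 55.7, 59.1 and 44.9 CPM (6.98 ± 1.32, adjusted p = 0.00264; 7.62 without 2-cell embryo 3). Chek1, the kinase that acts after ATR, fell from 230.2 ± 61.98 to 62.6 ± 42.4 CPM (adjusted p = 0.0317, lost without 2-cell embryo 5 or 4-cell embryo 3 or 4, with adjusted p up to 0.113). The helicase gene Pif1 was at 16.9, 28.9, 38.6, 10.5 and 31.4 CPM in 2-cell embryos and had no count in 4-cell embryos (adjusted p = 0.00573). Of 45 genes of the piRNA pathway and transposon control, 2 fell and 0 rose (4.44% called): Gtsf2, from 31.8 ± 22.4 to 0.165 ± 0.111 CPM (adjusted p = 0.00294), and Ago3, a small RNA effector, from 162, 145, 107, 149 and 132 CPM to 13.4, 33.8 and 34.5 CPM (−2.35 ± 0.54, adjusted p = 0.00947). The 2 falls became 4 without 4-cell embryo 2, and the count of rises became 1 without 2-cell embryo 3. Of 35 imprinted genes, 3 rose and 1 fell (11.4% called). Jade1 fell from 32.01, 0.801, 27.1, 8.12 and 44.9 CPM to 1 count (adjusted p = 0.00395). It was at 22.1 ± 9.90 and 8.70 ± 6.87 CPM at the intact stages, which did not pass (adjusted p = 0.471), and at 17.2 and 8.99 CPM in the 4-cell embryos of batch 2. Xist, the RNA that coats the inactive X chromosome, was at 39.6, 52.5 and 0 CPM in the 3 4-cell embryos and had 2 counts in 2-cell embryos (adjusted p = 0.0118). The embryo groups overlapped, since 4-cell embryo 4 had none, and the labels give no sex. Sgce was counted in 2 of 12 4-cell blastomeres and in no 2-cell blastomere (adjusted p = 0.0205).

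The single blastomeres in which each gene had a count were also counted, at 5930832 to 44048051 counts per 2-cell blastomere and 2404473 to 5232474 per 4-cell blastomere. Over all 14119 genes tested, the median was 7 of the 10 2-cell blastomeres and 7 of the 12 4-cell blastomeres. Of the 664 genes called lower, 486 (73.2%) had a count in all 10 2-cell blastomeres. Of the 904 called higher, 378 (41.8%) had one in all 12 4-cell blastomeres, at a median of 8. Of the 904, 333 had no count in any 2-cell blastomere, and they were counted in a median of 3 of the 12 4-cell blastomeres, with 297 of them (89.2%) in 6 or fewer. In these 297 genes a single blastomere gave a median of 58.5% of the 4-cell counts, and in the 36 genes seen in 7 or more it gave 30.1%. The 36 included Foxa1, H2ac4 and Gaa, and 23 of them (63.9%) were also called between intact stages, against 59 of the 297 (19.9%). Of all 654 genes tested without a count in the separated 2-cell embryos, 15.3% were called between intact stages, and of all genes tested 10.4%. In intact 2-cell embryos, 193 of the 333 genes (58.0%) had a count in some embryo, against 63.5% of the 654 and 94.5% of all genes tested. With each blastomere thinned to the smallest total before summing, 145 of the 333 still passed, 83.3% of the 36 and 38.7% of the 297, against 22.2% of the 654. Called genes without a 4-cell count numbered 51 and had a count in a median of 8 of 10 2-cell blastomeres. A gene in this set had to be high at the other stage to pass the count filter, so these counts describe the sets and test nothing. The sum of 4 libraries against 2 also gives a 4-cell embryo more chances to show a rare transcript.

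**Figure D5:**
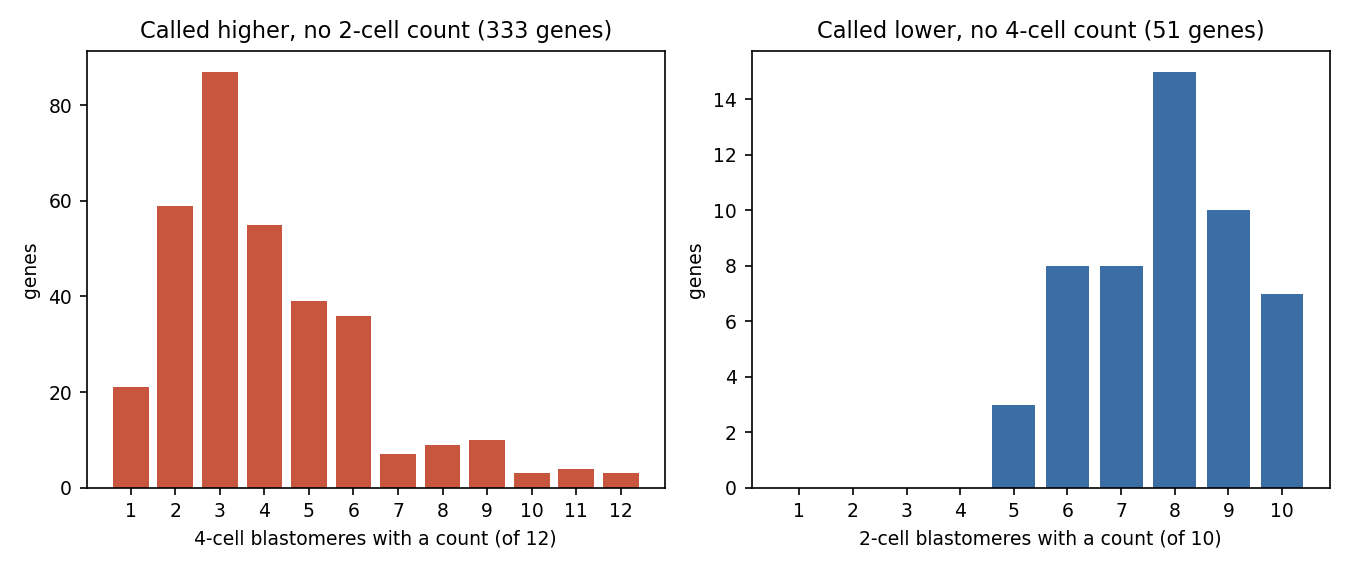
Number of genes (vertical axis) by the number of single blastomeres in which they had a count (horizontal axis): left, 333 genes called higher without a 2-cell count, over the 12 4-cell blastomeres; right, 51 genes called lower without a 4-cell count, over the 10 2-cell blastomeres. The first set peaks at few blastomeres and the second at many.

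The number of genes detected per embryo was compared after each embryo was thinned to 13041675 counts, the smallest total. The 2-cell embryos had 12601, 11768, 11314, 11867 and 13596 genes with a count and the 4-cell embryos 13139, 14060 and 14153. 2-cell embryo 5 exceeded 4-cell embryo 2, and the mean difference of 1555 genes did not pass (exact permutation test, two-sided, p = 0.0714). With at least 5 counts the difference was 412 genes (exact permutation p = 0.357). Before thinning, the 2-cell embryos had 11892 to 14148 genes and the 4-cell embryos 13467 to 14428.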

How the data were processed

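RNA of single blastomeres and of intact embryos was read by full-length sequencing with oligo-dT priming and template switching, per the labels' protocols. The values are RSEM expected counts per gene deposited by the authors in 1 table of 55487 genes. The submitters' processing notes name Trim Galore 0.6.10, STAR 2.7.3a, RSEM 1.2.28 and GRCm38 (mm10). The gene annotation and the strand setting are not given in the sources used here, and reads of overlapping or antisense genes cannot be told apart.

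Here the expected counts of each library were rounded and then summed over the blastomeres of an embryo. Genes that passed edgeR's filter in the 4 groups (14119) were fitted over all 19 embryos with a term for group and 1 for batch, since the 2 embryos of batch 2 are all separated 4-cell embryos. Tests were edgeR's quasi-likelihood F-tests (edgeR 4.0.16, R 4.3.3, TMM scaling) with Benjamini-Hochberg adjustment over all genes tested and a threshold of 0.05. "Called" means past that threshold, and SE is the log2 fold change divided by the square root of F. Alternatives were DESeq2 1.42.0, limma voom with a quality weight per embryo (limma 3.58.1), other scaling and filters, and thinning to equal totals. Further ones were the compared embryos alone, a replicate block and each embryo left out. A fold against a group without counts was taken against 3 counts over the group and leaves out the spread between embryos. Counting intervals are exact binomial at 95% and cover counting error only, since PCR reads carry no molecular identifiers. Fits were tested on simulated data. Tables and plots used Python 3.11.15 with numpy 2.4.6, pandas 2.3.3, scipy 1.17.1 and matplotlib 3.10.9.

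Named were the 8 called genes of highest CPM in each direction with at least a 2-unit log2 fold change and no overlap of embryos; genes counted in every blastomere of 1 stage and none of the other; up to 3 called members per list with the smallest p; both members of paralog pairs; and the 5 smallest interaction p-values. Predicted genes were counted and not named. Further members named were chosen after their values were seen. The members and lists were chosen with earlier results of these data known.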

Additional observations from a re-analysis of the deposited data

Results flagged for a closer look

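In 24 of 158 groups of 5 separated 2-cell embryos that were looked at, 1 embryo lay far from the other 4 by Dixon's test at 95%. Chance gives about 1 in 20 such groups if values are normally distributed, which CPM need not be, and the groups are not independent of each other. A gene counted in a single embryo, such as Ptch1, Wars, Yars2, Mrps18a or Mrpl19, is always flagged. The number of flagged groups is therefore no measure of an excess over chance.

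Embryo 4 was the one apart in 11 of them. It was the highest for Dppa5a (2346 CPM, others 429 to 882), Paip2 (496 CPM, others 138 to 176), Fbxo15 (746 CPM, others 391 to 486) and Tead4 (0.591 CPM, others 0 to 0.0674). The same holds for the summed CPM of the pluripotency regulators (4289, others 1498 to 2202), the transporters (705, others 277 to 380), nucleotide and one-carbon synthesis (9914, others 4953 to 5966) and the other-type paralogs (10526, others 8102 to 8738). Its share of counts in genes called lower was the lowest (20.2%, others 27.3% to 28.6%). The 2-cell counts of Mrps18a and Mrpl19 were all in embryo 4 (0.0394 and 0.0197 CPM).

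Embryo 3 had the highest mitochondrial share (33.2%), the highest share of counts in its 10 highest genes (36.4%, others 26.6% to 28.7%) and the highest Id3 (0.777 CPM) and Impdh2 (83.9 CPM). Embryo 2 was highest for Klf5 (162 CPM, others 84.0 to 92.6), Axin2 (29.1 CPM, others 0.769 to 4.71) and Ptch1 (0.0229 CPM, others 0). Embryo 5 was highest for Lsm14a (289 CPM, others 169 to 189), Pabpn1l (4.11 CPM) and Wars (0.0674 CPM, others 0) and lowest for Rpl21 (219 CPM, others 288 to 307). Embryo 1 was highest for Mrpl47 (59.4 CPM, others 18.999 to 29.1) and Yars2 (0.0254 CPM, others 0).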

How the results depend on the processing

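Of 1568 calls between the separated stages in the edgeR fit, the count was 3637 with DESeq2, 903 with the compared embryos alone and 711 with a replicate block, and 811 to 1525 with 1 embryo left out. With the other scaling, the filters, the thinnings, limma voom and batch 2 left out it was 1301 to 2318. The 0 calls of the interaction became 657 with DESeq2 and 1 with the stricter filter, and remained 0 in the other settings run. Genes counted in all 4-cell and no 2-cell blastomeres went from 3 to 7 with blastomeres thinned and to 3 to 7 with 1 embryo left out. The reverse set went from 10 to 42 with at least 5 counts asked for, to 2 with blastomeres thinned and to 11 to 24 with 1 embryo left out. The difference in genes detected was 1326 to 1896.5 with 1 embryo left out (exact permutation p = 0.0571 to 0.1905).

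For Zp2, which did not pass, the log2 fold change turned to 0.0157 with the replicate block. Of 122 tested genes named, 109 were called, 59 of them in all settings that gave a value and 79 without any 1 embryo. Voom lost 29 of these calls, the replicate block 25, the compared embryos alone 18 and DESeq2 1. In 165 genes, 7 of the 8 of highest CPM that fell among them, voom weights differed by over 1000-fold between embryos. These weights include a quality weight per embryo. The trend of a separate voom run without quality weights had a lowest value of −0.165. Of 1040 list counts in other settings, 798 were within 1.5 times of the value given. DESeq2 size factors shifted the median of all genes by −0.0624. The correlation of deviations was −0.0311, −0.00197 and −0.0175 for same-numbered embryos, against −0.0254 to 0.0363 for the other pairs. So few pairs cannot decide whether the replicate numbers pair embryos. Depth limits genes with few counts most, since 2-cell blastomeres were sequenced deeper than 4-cell ones. No sentence rests on an alternative chosen after the data were seen.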
